A study of Homo sapiens with 2 samples.

Results

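The genes described here are 53 genes of G2 and mitosis, of 36601 genes counted in the series. They are a list of names of genes that act between the end of DNA replication and cell division, and the rule that picks them uses names and no measured value, though the list was drawn up with earlier results of these data known. All 53 were found among the gene names. All 53 also passed the floor on low values used for ratios, a mean of 5 counts per 1000000 over the 3 cell classes below and at least 1 count in each. The cells were HES2, an established line of human embryonic stem cells, grown as 1 culture and taken through a differentiation to sinoatrial node-like pacemaker cells (SANLPC), and no treatment, genotype or time series was compared. The pair of libraries held RNA and the barcode of an antibody to human CD34 from the same live, DAPI-sorted single cells. The culture has no replicate, so no test was made. Intervals on counts, shares and ratios are exact, at 95%, and reflect only the error of counting, and those on medians come from ranked genes or cells.

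Cells were set in 3 classes by transcripts that are not among the 53. Cardiomyocytes carried the troponin gene TNNT2 at 2000 or more CPM (UMIs of the gene per 1000000 RNA UMIs of the cell, where a UMI, or unique molecular identifier, stands for 1 captured transcript). Fibroblast-like cells had TNNT2 under 1000 CPM and the collagen gene COL1A1 at 2000 CPM or more. Epithelial-like cells had both under 1000 CPM and at least 5 UMIs of VTCN1, GATA3, CLDN4 and WNT6 together.

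A cell that has copied its DNA enters mitosis when the kinase CDK1, bound to a B-type cyclin, is switched on. Polo and Aurora kinases then build the spindle, kinetochores tie chromosomes to it, and a checkpoint holds back the anaphase-promoting complex until all are attached. That complex destroys securin and cyclin B, sister chromatids part, and the cytokinesis genes close a contractile ring between the daughters. Fetal heart muscle cells still divide in this way, whereas most adult heart muscle cells do not, and a cell can go through mitosis without completing cytokinesis and become binucleate.

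Transcription of these genes peaks together in G2 and M, and many of their promoters carry a CHR element (cell cycle genes homology region) near the start site, with CCAAT boxes upstream of it. Promoter sequence from RefSeq, GRCh38.p14, was matched for 46 of the 53 genes, as 250 bases before and 50 bases from the start. The motifs searched were TTTGAA or TTCGAA for CHR and CCAAT for the box, on both strands, and a base can belong to a match of each. A CHR was present for 35 of the 46 genes (76.1%), against 19.5% of 27305 genes in the table. At least 1 CCAAT was present for 36 of the 46 (78.3%, against 39.7%), at least 2 for 28 (60.9%, against 12.9%), and both motifs in the same promoter for 30 (65.2%, against 7.85%). By role, a CHR was found for 6 of 7 cyclin and CDK1 genes, 6 of 7 centromere genes, 5 of 6 cytokinesis genes, 6 of 8 chromosome and envelope genes, 8 of 11 spindle genes, 2 of 3 anaphase-promoting complex and securin genes and 2 of 4 kinases. In 10 of the 46 genes (21.7%, against 0.560% of all) a CHR began 31 to 27 bases before the start, a window picked after the positions had been seen. These are matches of letters in a fixed window, and no binding was measured.

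The following stretches run 5′ to 3′ on the gene's strand from 130 bases before to 20 bases after the start, 150 bases each, with CHR and CCAAT letters of either strand in capitals. CCNB2, PLK1, CKS2 and KIF11 are shown because the CHR sits at nearly the same distance from the start in genes of different function. KIF23 and LBR are shown because their levels differed most between the classes. The stretches are CCNB2 at chr15:59105016-59105165, PLK1 at chr16:23678759-23678908, CKS2 at chr9:89311065-89311214, KIF11 at chr10:92593000-92593149 and KIF23 at chr15:69414219-69414368, all on the plus strand, and LBR at chr1:225428802-225428951 on the minus strand.
CCNB2: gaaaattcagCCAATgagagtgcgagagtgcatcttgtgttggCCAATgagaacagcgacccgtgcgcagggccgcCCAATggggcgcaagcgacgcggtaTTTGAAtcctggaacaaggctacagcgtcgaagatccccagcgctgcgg
PLK1: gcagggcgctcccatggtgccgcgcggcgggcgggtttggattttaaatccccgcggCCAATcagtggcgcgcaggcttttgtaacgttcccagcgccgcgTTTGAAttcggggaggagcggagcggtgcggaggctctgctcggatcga
CKS2: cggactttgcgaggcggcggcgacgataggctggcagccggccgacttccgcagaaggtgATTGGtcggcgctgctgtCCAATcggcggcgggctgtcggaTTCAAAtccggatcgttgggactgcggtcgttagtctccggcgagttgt
KIF11: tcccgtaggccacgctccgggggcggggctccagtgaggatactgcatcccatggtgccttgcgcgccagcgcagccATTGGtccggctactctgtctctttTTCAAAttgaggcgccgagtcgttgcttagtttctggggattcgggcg
KIF23: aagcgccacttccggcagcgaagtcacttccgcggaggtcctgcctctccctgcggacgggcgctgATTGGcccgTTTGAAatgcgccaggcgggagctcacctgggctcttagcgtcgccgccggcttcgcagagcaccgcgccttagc
LBR: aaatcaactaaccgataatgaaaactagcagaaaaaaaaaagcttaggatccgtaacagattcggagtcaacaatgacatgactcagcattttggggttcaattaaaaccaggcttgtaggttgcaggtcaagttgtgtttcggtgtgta
The CHR begins 29 bases before the start in CCNB2, PLK1 and CKS2, 28 in KIF11 and 55 in KIF23. The LBR stretch holds neither motif.

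Of 14829 barcodes, 11211 were kept, with at least 1000 genes, at most 25% mitochondrial UMIs and at most 35000 RNA UMIs. They had a median of 16607 RNA UMIs (5th and 95th percentiles 4330.5 and 30198.5), and no barcode was listed more than once. The classes held 5516 cardiomyocytes, 617 fibroblast-like and 4046 epithelial-like cells at median depths of 16209, 18537 and 17452.5 UMIs, and 1032 cells fell in no class. Within 10% of the TNNT2 limits lay 172 and 165 cells. MYL7, an atrial myosin light chain, had 12343 CPM in cardiomyocytes, 278 CPM in fibroblast-like and 258 CPM in epithelial-like cells, and all 6 cardiomyocyte markers were highest in cardiomyocytes. The epithelial-like cells carried all 7 epithelial markers above the other classes, among them EPCAM at 811 CPM, but also the matrix genes COL3A1 at 2528, LUM at 684 and DCN at 529 CPM. The fibroblast markers COL1A2, COL3A1, DCN, POSTN and PDGFRA were highest in fibroblast-like cells, but LUM, at 448 CPM there, was not. Of the epicardial genes, UPK3B (40.9 CPM) and WT1 (13.5 CPM) were also highest there, ALDH1A2 in cardiomyocytes and BNC1 in epithelial-like cells. Of the endothelial genes, CDH5 had 0 UMIs in all 3 classes. PECAM1 had 2, 1 and 0 UMIs and KDR 206, 284 and 135 in cardiomyocytes, fibroblast-like and epithelial-like cells. KDR thus reached 24.5 CPM in fibroblast-like cells, with a UMI in 18.8% of them. The blood gene PTPRC had 2 UMIs in epithelial-like cells and 0 in the others. Shares of cells with a UMI were taken after thinning every cell to 5000 UMIs, which left out 289, 20 and 68 shallower cells of the 3 classes in the order above. A UMI of MYL7 was then found in 69.7% of epithelial-like cells (96.6% unthinned), so a share of cells alone is not read as expression.

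The G2 and mitosis genes were highest as a group in epithelial-like cells and lay near each other in cardiomyocytes and fibroblast-like cells. Summed over the 53 genes, the level was 3233 CPM in cardiomyocytes, 3094 CPM in fibroblast-like and 4420 CPM in epithelial-like cells. Single genes ran from 4.88 CPM for CDC25C to 273 CPM for TUBB4B in cardiomyocytes, with a median of 40.3, against medians of 39.8 and 59.1 CPM in fibroblast-like and epithelial-like cells. The median gene had a UMI in 9.99%, 10.4% and 14.3% of thinned cardiomyocytes, fibroblast-like and epithelial-like cells.

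Between epithelial-like cells and cardiomyocytes, 22 of the 53 genes were at least 1.5-fold higher and 0 were lower by that factor, where 26.5% of all 11414 genes tested were higher and 21.5% were lower. The share past the fold was thus above the background upward and below it downward. The median log2 ratio was 0.48 (0.28 to 0.63), with 45 of 53 genes above 0, against 0.10 over all genes. Measured from the median gene it was 0.38, and 16 genes were then past the fold. Fibroblast-like cells had 1 gene higher than cardiomyocytes and 5 lower, where 23.4% and 19.5% of all genes were, and a median log2 ratio of -0.10 (-0.23 to -0.0014) against 0.06. Against fibroblast-like cells, epithelial-like cells had 27 genes higher and 0 lower, where 19.1% and 19% of all genes were, and a median of 0.60 (0.44 to 0.65) against 0.06. These 3 comparisons share their classes and are not independent of each other.

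These contrasts moved with where the classes were cut on TNNT2. With cardiomyocytes from 4000 CPM of TNNT2 and the other classes under 500 CPM, 41 genes were higher in epithelial-like cells than in cardiomyocytes and the median was 1.04. Under the same limits fibroblast-like cells turned to a median of 0.39 above cardiomyocytes, with 17 genes higher and 0 lower. The direction between fibroblast-like cells and cardiomyocytes thus depended on the limits. The limits of the classes were changed together, so the part of each cannot be told apart. The shares by TNNT2 level given further on cover the cells concerned.

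**Figure D1:**
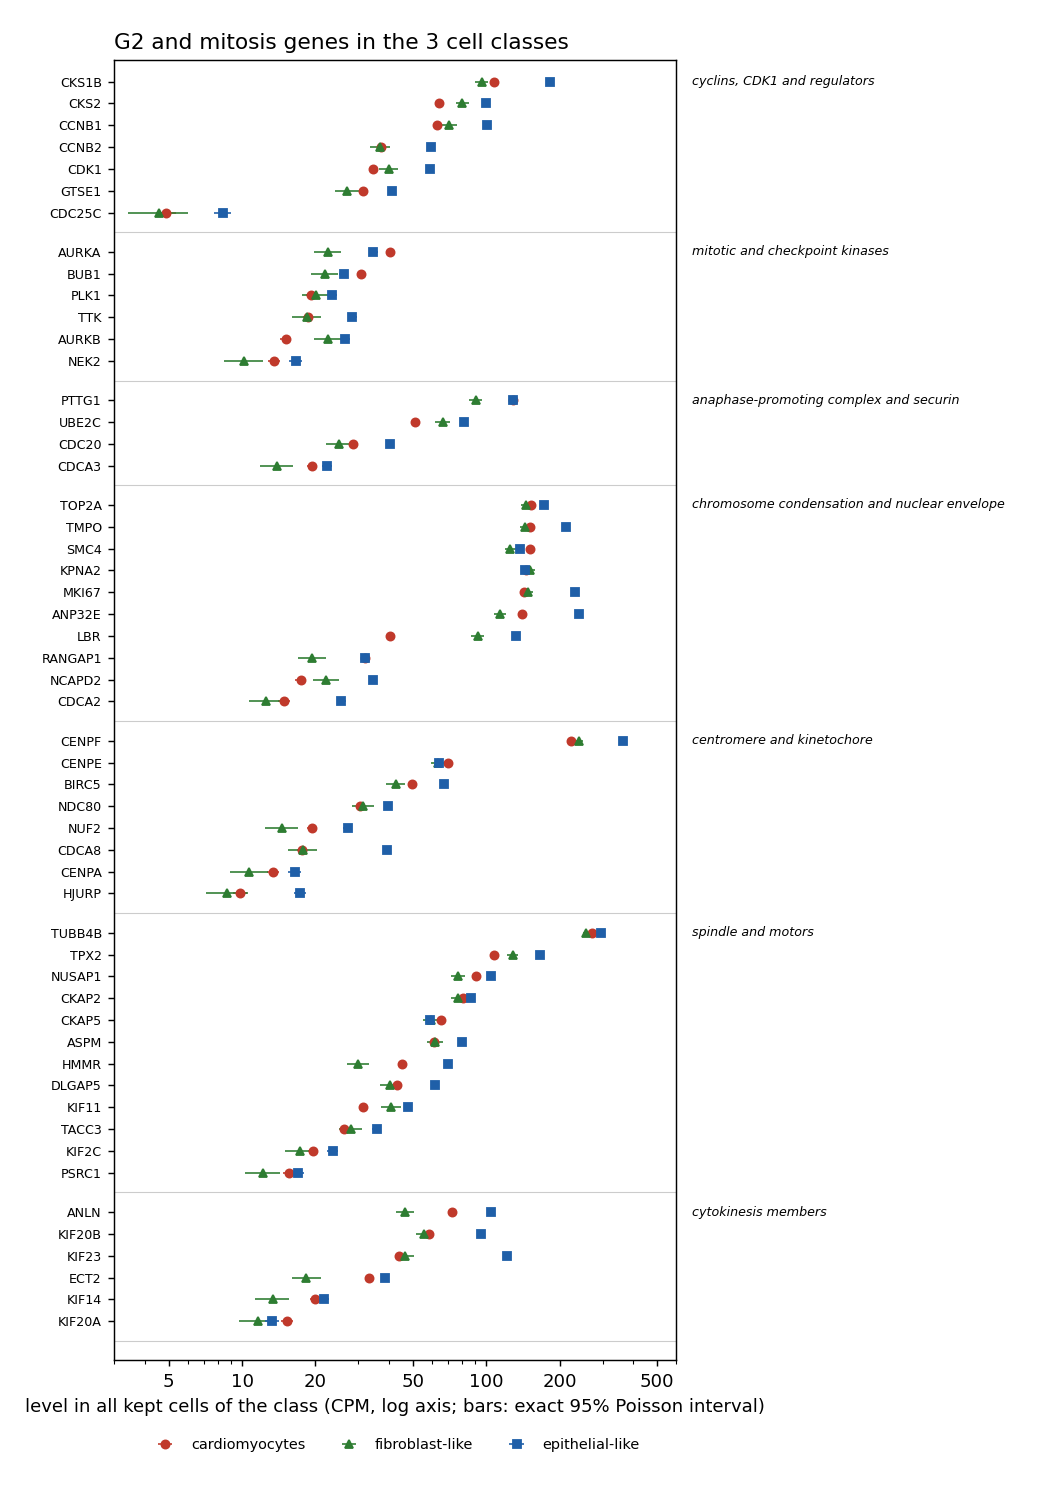
Level of each of the 53 genes (CPM, log axis) in all kept cells of the 3 classes, ordered by role, with exact 95% Poisson intervals. Epithelial-like cells sit to the right for most genes, LBR and KIF23 are the widest apart, and AURKA, BUB1, SMC4, CENPE, CKAP5 and KIF20A are among the few that are highest in cardiomyocytes.

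Among the cyclins, CDK1 and their regulators, 6 of 7 genes were higher in epithelial-like cells than in cardiomyocytes, with a role median of 0.69. CDK1, the kinase that drives entry into mitosis, had 34.4 CPM in cardiomyocytes (33.2 to 35.6), 39.8 in fibroblast-like cells (36.3 to 43.7) and 58.8 in epithelial-like cells (57.1 to 60.6). Its ratio of epithelial-like cells to cardiomyocytes was 1.71 (1.63 to 1.79), and a UMI was found in 8.92%, 10.7% and 14.5% of thinned cells (17.2%, 18.8% and 27.3% unthinned). Its cyclin partners CCNB1 and CCNB2 both had a ratio of 1.61, at 62.8 and 37.0 CPM in cardiomyocytes and 101 and 59.6 CPM in epithelial-like cells. The small CDK-binding subunits CKS1B and CKS2 had ratios of 1.69 and 1.56, and the phosphatase CDC25C, which activates CDK1, 1.71. GTSE1, a microtubule-binding protein of G2 that restrains p53, was the exception at 1.32 (1.25 to 1.39). Fibroblast-like cells stayed within 1.5-fold of cardiomyocytes for all 7, from 0.86 for GTSE1 to 1.25 for CKS2.

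The kinases were divided. AURKB, the Aurora kinase of the chromosomal passenger complex, was 1.74-fold higher in epithelial-like cells than in cardiomyocytes (1.63 to 1.87), at 15.1 CPM in cardiomyocytes, 22.4 in fibroblast-like and 26.4 in epithelial-like cells. The checkpoint kinase TTK was 1.51-fold higher (1.42 to 1.61), and PLK1, the Polo kinase, and NEK2, a kinase that splits centrosomes, both had ratios of 1.22. AURKA, the Aurora kinase of centrosomes and spindle poles, was instead highest in cardiomyocytes, with 40.3 CPM in cardiomyocytes (39.0 to 41.6), 22.4 in fibroblast-like (19.8 to 25.3) and 34.6 in epithelial-like cells (33.2 to 35.9). It was the second lowest of the 53 genes in fibroblast-like cells relative to cardiomyocytes, at a ratio of 0.556 (0.489 to 0.631). Its epithelial-like to cardiomyocyte ratio of 0.857 turned to a log2 ratio of 0.21 with the stricter class limits. BUB1, another checkpoint kinase, had 30.7, 21.8 and 26.1 CPM in the same order of classes.

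UBE2C, the ubiquitin-conjugating enzyme of the anaphase-promoting complex, was 1.59-fold higher in epithelial-like cells than in cardiomyocytes (1.53 to 1.65), and CDC20, its activator, 1.42-fold. PTTG1, securin, was level between them at 128 and 129 CPM (ratio 0.997, 0.970 to 1.02) and had 90.7 CPM in fibroblast-like cells. CDCA3, which targets the kinase WEE1 for destruction, had a ratio of 1.15 between epithelial-like cells and cardiomyocytes and of 0.715 between fibroblast-like cells and cardiomyocytes.

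Genes of chromatin, chromosome condensation and the nuclear envelope varied most. LBR, the lamin B receptor that ties heterochromatin to the inner nuclear membrane, had 40.5 CPM in cardiomyocytes (39.2 to 41.8), 92.5 in fibroblast-like (87.0 to 98.2) and 132 in epithelial-like cells (130 to 135). Both ratios to cardiomyocytes, 2.28 (2.13 to 2.44) and 3.27 (3.14 to 3.39), were the highest of the 53 genes, and LBR was the gene that passed the fold upward in fibroblast-like cells. NCAPD2, a condensin subunit, had an epithelial-like to cardiomyocyte ratio of 1.98 (1.86 to 2.11), CDCA2, which brings a phosphatase to chromatin, 1.72, ANP32E, a chaperone that removes the histone variant H2A.Z, 1.71, and the proliferation marker MKI67 1.62. SMC4, a condensin core subunit, was not higher with NCAPD2, at 151 CPM in cardiomyocytes and 137 in epithelial-like cells (ratio 0.912, 0.889 to 0.936). TMPO, a lamina-associated protein, had a ratio of 1.40, the topoisomerase TOP2A 1.13, RANGAP1, the GTPase activator of the Ran cycle, 1.0 and the importin KPNA2 0.993. RANGAP1 was the only one of these 10 genes past the fold downward in fibroblast-like cells, at 0.608 of the cardiomyocyte level (0.529 to 0.697).

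At the centromere, CDCA8, a passenger complex subunit also known as borealin, was 2.22-fold higher in epithelial-like cells than in cardiomyocytes (2.09 to 2.36), with 17.7, 17.8 and 39.2 CPM in cardiomyocytes, fibroblast-like and epithelial-like cells. Its partner in that complex, BIRC5 or survivin, had a ratio of 1.34. HJURP, the chaperone that deposits the centromeric histone CENPA, was 1.76-fold higher (1.62 to 1.92), and CENPA itself 1.23-fold. CENPF, a large kinetochore protein, had 223, 240 and 363 CPM (ratio of epithelial-like cells to cardiomyocytes 1.63, 1.60 to 1.66), whereas the kinetochore motor CENPE had 70.1, 63.8 and 64.1 CPM (0.915). NDC80 and NUF2, which form part of the microtubule-binding Ndc80 complex, had ratios of 1.30 and 1.40.

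Of the 12 spindle genes, 3 were past the fold in epithelial-like cells against cardiomyocytes, a share near the 26.5% of all genes, and all 3 lay close to the limit. They were TPX2, an activator of Aurora A (1.55), HMMR, a spindle pole protein (1.54), and the spindle motor KIF11 (1.53). DLGAP5, TACC3, ASPM, KIF2C and NUSAP1, which organise spindle microtubules, ran from 1.43 down to 1.15. The last group of spindle genes was nearly level, with CKAP2, PSRC1 and TUBB4B, a beta-tubulin, at 1.08 to 1.09 and the microtubule polymerase CKAP5 at 0.902. HMMR was lower in fibroblast-like cells than in cardiomyocytes, at 29.9 against 45.3 CPM (0.661, 0.591 to 0.738).

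Cytokinesis genes were kept apart, as 6 of the 53 and 6 further genes listed beside them. KIF23, the motor subunit of centralspindlin at the midbody, was 2.77-fold higher in epithelial-like cells than in cardiomyocytes (2.67 to 2.88), at 44.0 CPM in cardiomyocytes (42.6 to 45.4), 46.4 in fibroblast-like (42.6 to 50.5) and 122 in epithelial-like cells (119 to 125). RACGAP1, its partner in centralspindlin and one of the further genes, had no such difference, at 16.6, 12.8 and 15.3 CPM (epithelial-like to cardiomyocyte ratio 0.921, 0.851 to 0.996). KIF20B, which acts late in abscission, was 1.63-fold higher, ANLN, the ring scaffold anillin, 1.44-fold, ECT2, which activates RhoA at the cleavage site, 1.16-fold and KIF14, a midbody motor, 1.09-fold, while KIF20A had a ratio of 0.866. Among the further genes, citron kinase CIT was 2.08-fold and CEP55, an abscission organiser, 1.51-fold higher. PRC1, the bundler of the central spindle, and KIF4A, a motor that works with it, had ratios of 1.33 and 1.46, and SHCBP1 had 0.907.

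Of the 6 cytokinesis members, ECT2 and ANLN were past the fold downward in fibroblast-like cells relative to cardiomyocytes. ECT2 stood at 18.4 against 33.3 CPM (0.552, 0.478 to 0.634) and ANLN at 46.4 against 72.4 CPM (0.641), and KIF14 lay just inside the limit at 0.673. The median log2 ratio of the 6 cytokinesis members was -0.48, that of the 47 other members -0.10 and that of the 6 further cytokinesis genes 0.15, so the lower level was not shared by cytokinesis genes as a whole. With the stricter class limits both calls were lost, at log2 ratios of -0.39 for ECT2 and -0.19 for ANLN.

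To separate how many cells carried the genes from how much each carried, a cell was called G2/M-high when at least 5 of 16 of the genes had a UMI after thinning. The 16 were CDK1, NUSAP1, UBE2C, BIRC5, TPX2, TOP2A, NDC80, NUF2, MKI67, CENPF, CCNB2, CCNB1, BUB1, HMMR, GTSE1 and AURKA, and no cytokinesis gene was among them. The name refers to the gate alone, which sets no limit on S phase genes. Summed over 12 S phase genes, G2/M-high cells had 2.67-fold the level of other cells in cardiomyocytes. The ratio was 3.57 in fibroblast-like and 1.98 in epithelial-like cells. The gate thus does not tell cells in G2 and mitosis from cells in S phase. By this rule 730 of 5227 cardiomyocytes were G2/M-high, or 14.0% (13.0 to 14.9%). The share was 13.9% of fibroblast-like cells (83 of 597, 11.2 to 16.9%) and 20.8% of epithelial-like cells (826 of 3978, 19.5 to 22.1%). The intervals of cardiomyocytes and fibroblast-like cells overlapped widely, and both lay below that of epithelial-like cells. Without thinning, the shares were 22.0%, 23.7% and 31.4%.

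The number of gate genes per cell ran on without a gap. None of the 16 was detected in 48.6% of cardiomyocytes, 45.4% of fibroblast-like and 41.1% of epithelial-like cells, and 10 or more were detected in 7.77%, 6.53% and 10.9%. Cells with exactly 4 or 5 numbered 178, 18 and 204, so G2/M-high is a range of a continuous measure and not a cell type. In epithelial-like cells the share had a shallow low of 1.61% at 6 genes and a shallow high of 2.36% at 10. Within it, the median number of gate genes was 10, 9 and 10. G2/M-high cells were deeper than the others, at 20829.5 against 16242 UMIs in cardiomyocytes, 23249 against 18171 in fibroblast-like and 21014.5 against 17031 in epithelial-like cells. Their mitochondrial share was 10.8% against 12.2% in cardiomyocytes. Scrublet, a doublet caller, marked 19.3% of G2/M-high and 9.25% of other cardiomyocytes, and 4.84% and 1.36% of epithelial-like cells. The part of depth and doublets in the shares was not tested beyond the removals: without the marked cells the shares were 12.6%, 12.8% and 20.2%, and with no upper UMI limit 16.3%, 16.6% and 22.3%.

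**Figure D2:**
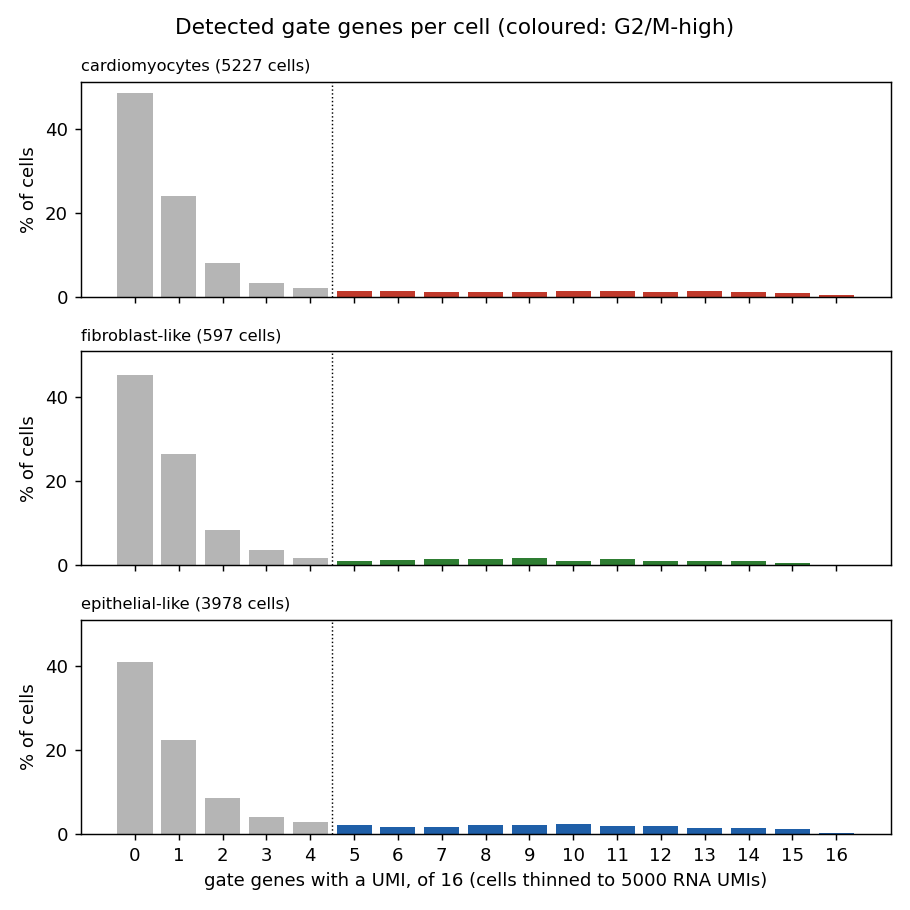
Percent of cells by the number of the 16 gate genes with a UMI after thinning to 5000 RNA UMIs, in each class. Bars from 5 upward, in colour, are the G2/M-high cells: 14.0% of cardiomyocytes, 13.9% of fibroblast-like and 20.8% of epithelial-like cells, spread over all numbers up to 16 genes.

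Within G2/M-high cells, the classes came close to each other. For a gate gene, the gate was drawn on the remaining 15. Between epithelial-like cells and cardiomyocytes, 4 of 53 genes were higher and 4 lower, where 22.9% and 20.6% of 11271 genes were, and the median log2 ratio was -0.05 (-0.25 to 0.14) against 0.06 over all genes. The 45 genes between the limits included 15 of the 16 gate genes. CDK1 stood at 175 CPM in G2/M-high cardiomyocytes, 202 in fibroblast-like and 203 in epithelial-like cells, MKI67 at 810, 820 and 907 CPM and CENPF at 1269, 1307 and 1408 CPM. The 7 cyclin and CDK1 genes had a median of 0.18 within G2/M-high cells, where it had been 0.69 over all cells.

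The 4 genes still higher in epithelial-like cells were LBR (2.46, 2.31 to 2.62), KIF23 (1.65, 1.58 to 1.73), ANP32E (1.61, 1.55 to 1.67) and CDCA8 (1.53, 1.43 to 1.63). The 4 lower were BUB1 (0.607, 0.569 to 0.647), KIF20A (0.610, 0.559 to 0.666), SMC4 (0.645, 0.625 to 0.665) and CENPE (0.656, 0.629 to 0.683). KPNA2, at 0.669, lay just inside the limit. CENPE stood at 363 CPM in G2/M-high cardiomyocytes, 323 in fibroblast-like and 238 in epithelial-like cells, while SMC4 stood at 608 and 462 CPM in the first pair of classes. TOP2A, which over all cells had been 1.13-fold higher in epithelial-like cells, had 875, 794 and 688 CPM within G2/M-high cells.

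Between fibroblast-like cells and cardiomyocytes, 1 gene was higher within G2/M-high cells and 7 were lower, where 21.9% and 20.6% of all genes were, with a median log2 ratio of -0.17 (-0.28 to -0.01). The higher gene was LBR at 1.94 (1.72 to 2.19). ECT2 was lowest at 0.463 (0.388 to 0.550), followed by RANGAP1 (0.629), HMMR (0.654), AURKA (0.655), PTTG1 (0.656), ANLN (0.660) and KIF14 (0.665). Only 83 fibroblast-like cells stood behind these values, and the intervals of all 7 except ECT2 reached past the limit of 0.667. Between epithelial-like and fibroblast-like cells, 6 genes were higher and 0 lower, where 18.8% of all genes were in either direction. They were HMMR (1.78), ECT2 (1.70), KIF23 (1.67), ANP32E (1.66), CDCA2 (1.56) and CDCA8 (1.53).

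Within G2/M-high cells, 3 of the 6 cytokinesis members and 0 of the 6 further genes were lower in fibroblast-like cells than in cardiomyocytes. Over all 12 cytokinesis genes, the median log2 ratio within G2/M-high cells was -0.07 for epithelial-like cells over cardiomyocytes (-0.52 to 0.08) and -0.17 for fibroblast-like cells over cardiomyocytes (-0.59 to 0.01). With no upper UMI limit the first of these stood at 0.14. The 47 members without cytokinesis had -0.05 and -0.16. ANLN had 328, 216 and 320.5 CPM in G2/M-high cardiomyocytes, fibroblast-like and epithelial-like cells, ECT2 155, 71.8 and 122 CPM, and KIF14 110, 72.8 and 82.3 CPM. All 6 cytokinesis members had a fibroblast-like to cardiomyocyte ratio under 1, with a median log2 ratio of -0.54, whereas 3 of the 6 further genes did, with a median of -0.02. KIF20A had 82.5, 58.4 and 50.3 CPM, and SHCBP1, with 84.8, 81.6 and 51.9 CPM, was the only one of the further genes past the fold (0.612 in epithelial-like cells over cardiomyocytes). Transcript levels say nothing of whether the cells completed division.

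**Figure D3:**
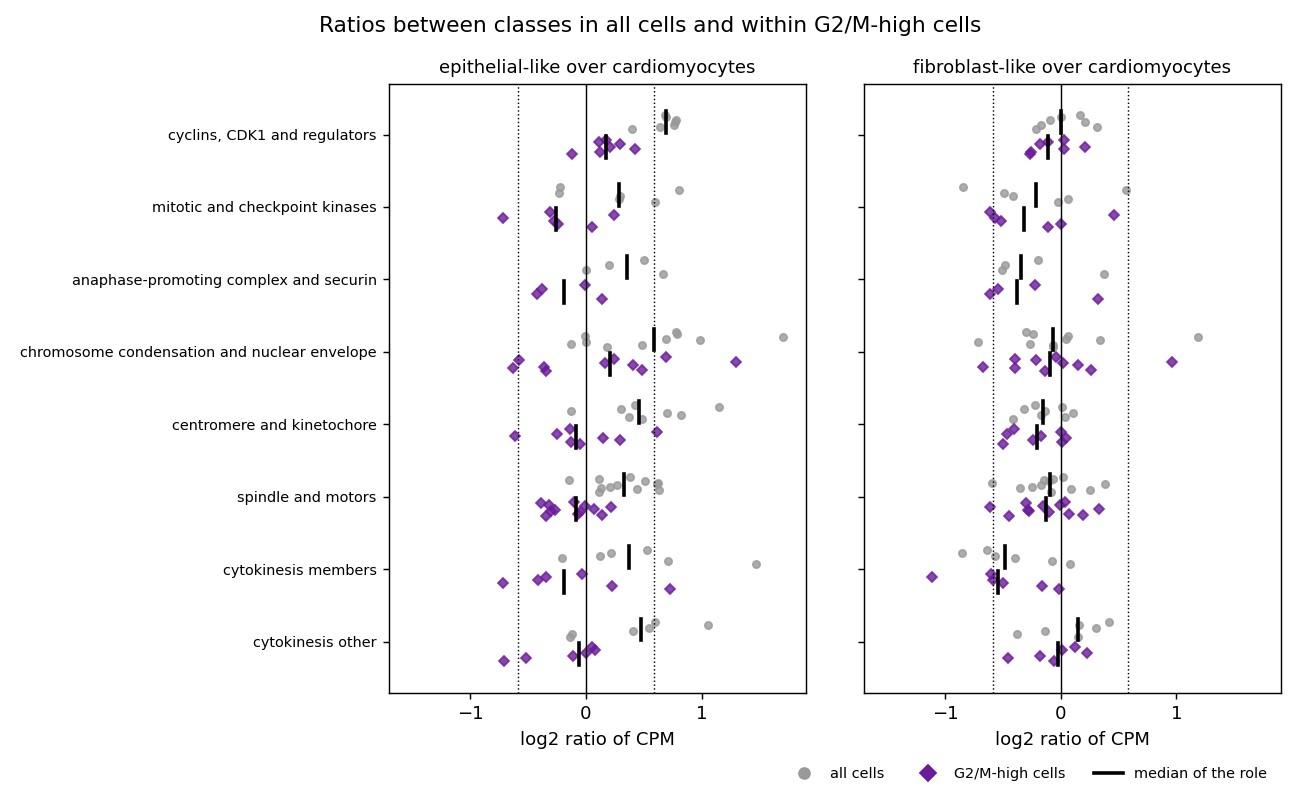
Log2 ratio of CPM between classes for each gene by role, in all cells (grey circles) and within G2/M-high cells (purple diamonds), with the median of each role as a black bar and dotted lines at 1.5-fold. For epithelial-like cells over cardiomyocytes the role medians move from 0.29 to 0.69 in all cells to -0.26 to 0.20 within G2/M-high cells, and the median of the cytokinesis members is below 0 in fibroblast-like cells over cardiomyocytes in both.

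Most of the genes were held largely by G2/M-high cells, with a few genes spread more widely. In cardiomyocytes these cells held 16.5% of all RNA UMIs but a median of 85.2% of a gene's UMIs, with 34 of 53 genes at 80% or more. The medians were 81.7% in fibroblast-like cells, which held 16.8% of RNA there, and 86.7% in epithelial-like cells, which held 24.1%. Of the 37 genes outside the gate, the median in cardiomyocytes was 82.8%, and 19 reached 80% or more, against 15 of the 16 gate genes. Genes at 80% or more were not counted over all genes, and the gate itself was drawn on 16 of the 53. The counts at 80% or more are therefore not read as a trait of the 53 or of a role. PLK1 was the most restricted in cardiomyocytes, at 93.9% (92.6 to 94.9%), followed by CENPA (93.7%), NEK2 (92.7%) and DLGAP5 (92.3%). The 8 centromere genes all reached 80% or more in cardiomyocytes.

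Some of the genes were spread more evenly. ANP32E had 31.7% of its UMIs in G2/M-high cardiomyocytes, LBR 36.8%, TMPO 39.0%, CKAP5 41.1%, RANGAP1 46.5%, CKS1B 49.5% and TUBB4B 52.6%, and these 7 were all the genes under 60% there. In epithelial-like cells these 7 ran from 40.1% for LBR to 57.0% for CKS1B, and 7 genes in all were under 60%. In fibroblast-like cells 10 genes were, among them CKS2 at 50.2%. The 12 S phase genes listed for comparison had medians of 38.0%, 44.0% and 40.5% in cardiomyocytes, fibroblast-like and epithelial-like cells.

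AURKA was held less by G2/M-high cells in cardiomyocytes than in the other classes. The share of its UMIs in them was 64.9% in cardiomyocytes (63.3 to 66.4%), 78.1% in fibroblast-like (72.5 to 83.0%) and 89.6% in epithelial-like cells (88.3 to 90.8%), with the gate drawn without AURKA. The order was the same for the spindle gene PSRC1, at 60.3%, 72.3% and 77.3%. KIF23 and CIT had the opposite order, with 78.5%, 73.8% and 67.4% for KIF23 and 82.4%, 74.5% and 60.4% for CIT. In both pairs the intervals of cardiomyocytes and epithelial-like cells did not overlap.

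**Figure D4:**
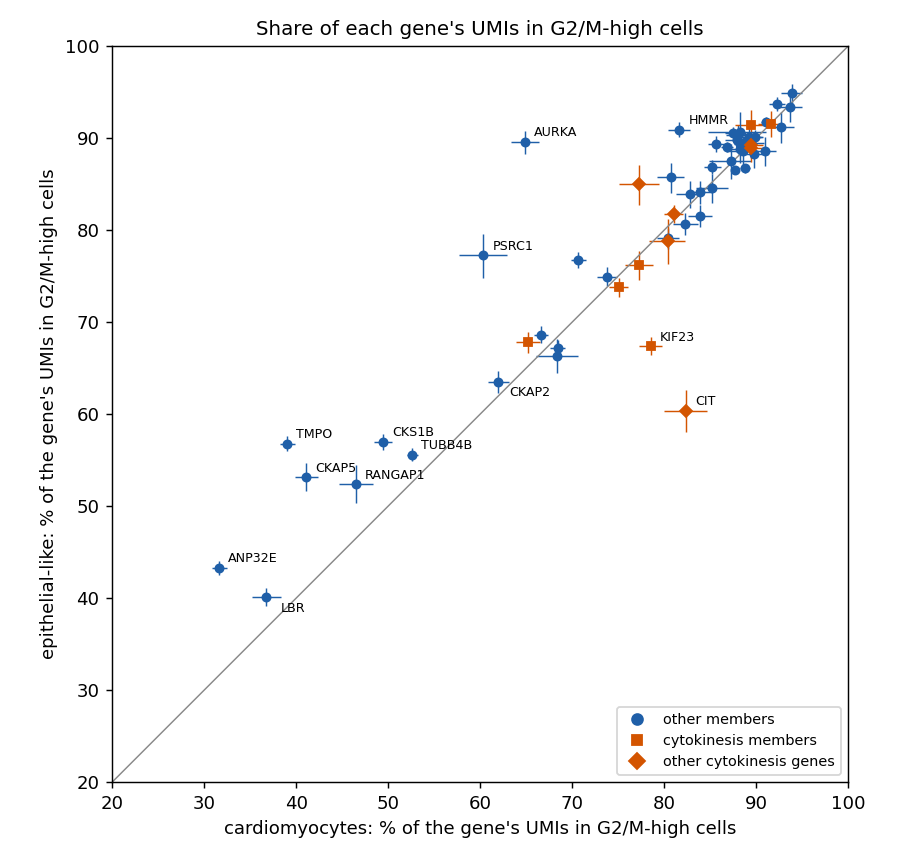
Percent of each gene's UMIs that lay in G2/M-high cells, in cardiomyocytes and in epithelial-like cells, with exact 95% binomial intervals and the line of equality. AURKA, PSRC1 and TMPO stand above the line, KIF23 and CIT stand below it, and LBR and ANP32E have the lowest shares in both classes.

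Some of the genes also differed in cells with no other sign of the gate. In cells that had 0 UMIs of every other gate gene before thinning, a comparison added after the shares above had been seen, AURKA had 16.4 CPM in 1414 cardiomyocytes (14.7 to 18.3), 5.32 CPM in 109 fibroblast-like cells (2.30 to 10.5) and 3.55 CPM in 700 epithelial-like cells (2.47 to 4.93). The cardiomyocyte level was 4.63-fold that of epithelial-like cells (3.26 to 6.77). A UMI of AURKA was found in 18.5%, 6.42% and 4.86% of these cells, at median depths of 14118.5, 13734 and 14409 UMIs.

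KIF23 showed the reverse, with 7.75 CPM in 1153 cardiomyocytes (6.42 to 9.27), 11.6 CPM in 102 fibroblast-like cells (6.66 to 18.9) and 34.0 CPM in 666 epithelial-like cells (30.3 to 37.9). CIT had 12, 2 and 118 UMIs in these cells, or 0.781, 1.46 and 12.6 CPM. LBR had 29.4, 80.8 and 99.0 CPM, in the same order as over all cells. AURKA, KIF23, CIT and LBR were picked here after their values had been seen, and other genes of the 53 differed too. Of the 53 ratios of epithelial-like cells to cardiomyocytes, 18 had an interval above 1, 6 an interval below 1 and 29 an interval that held 1. The same count was not made over all genes, so it is not read as a trait of the 53. GTSE1 had 2.86 (1.47 to 5.78), NCAPD2 2.21 (1.63 to 3.03), CCNB2 2.18 (1.54 to 3.11) and CDK1 1.85 (1.23 to 2.79), while CENPE had 0.533 (0.353 to 0.787). MKI67, at 1.10 (0.807 to 1.49), and PLK1, at 1.53 (0.661 to 3.50), were among those that held 1.

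Among cardiomyocytes, G2/M-high cells were found mainly at the lower TNNT2 levels. The share was 33.1% at 2000 to 4000 CPM of TNNT2 (294 of 889), 23.6% at 4000 to 6000, 8.75% at 6000 to 8000 and 2.04% at 8000 to 12000 CPM (31 of 1521, 1.39 to 2.88%). Above 12000 CPM there were 0 of 269 cells, which allows a share of up to 1.12%. Just outside the class, at 1000 to 2000 CPM, it was 24.5% of 322 cells. Among cells of any other kind it was 12.9% of 950 at 500 to 1000 CPM and 20.8% of 4069 under 500 CPM. Median depth was 19359 UMIs at 2000 to 4000 CPM and 15064 above 12000 CPM, and the part of depth was not tested beyond thinning. The share was 14.0% of cardiomyocytes with a UMI of TBX3, a transcription factor of the sinus node, and 13.9% of those without, and 14.7% and 13.9% for NKX2-5 of working muscle. For the pacemaker genes SHOX2 and TBX18 it was 13.9% and 14.2%, and 14.9% and 13.5%, with overlapping intervals. For ISL1, of cardiac progenitors and the sinus node, it was 17.7% (15.7 to 19.8%) and 12.7% (11.6 to 13.8%). These intervals do not overlap, but they reflect only counting error over cells of 1 culture. Cells with a UMI of ISL1 were also deeper, at a median of 16975 against 16450.5 UMIs.

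**Figure D5:**
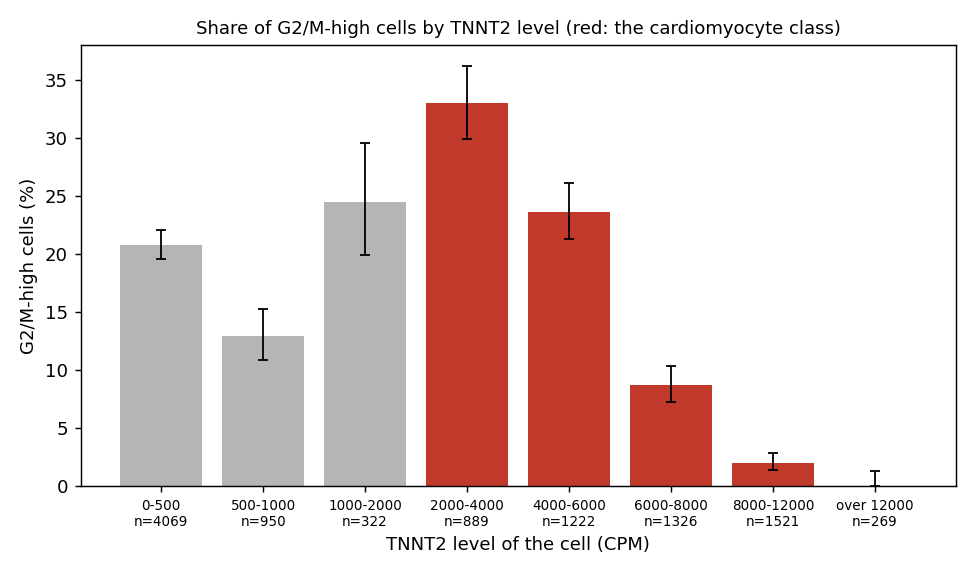
Percent of G2/M-high cells by the TNNT2 level of the cell, with exact 95% binomial intervals and the number of cells under each bar. Red bars are the cardiomyocyte class, in which the share goes from 33.1% at 2000 to 4000 CPM to 0 of 269 cells above 12000 CPM.

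Several contractile genes were lower in G2/M-high cardiomyocytes than in other cardiomyocytes. Of 12 sarcomere genes tested, 4 were lower by 1.5-fold and 0 higher, where 3.48% of 10942 genes were lower and 9.36% higher, and the median log2 ratio was -0.51 against 0.02 over all genes. TNNI3, adult cardiac troponin I, had 279 against 556 CPM (0.501, 0.485 to 0.517), MYBPC3 a ratio of 0.617 and MYL3 of 0.622. TNNT2 had 0.630, but it also defines the class. MYL7 and the atrial myosin MYH6 were nearer to level at 0.805 and 0.806. Of 5 working genes tested, 3 were lower: GJA5 (0.541), NPPA (0.594) and SLN (0.656). A UMI of GJA5 was found in 4.79% of thinned G2/M-high and 8.01% of other cardiomyocytes, and of NPPA in 45.8% and 48.8%. SLN, with 93 UMIs in G2/M-high cells, went the other way by share, at 1.51% and 1.29%. Of 8 pacemaker genes 0 were past the fold in either direction, from 0.717 for VSNL1 to 1.26 for ISL1, with a median of -0.19. Of the markers of the other classes, 1 of 6 fibroblast and 0 of 7 epithelial markers were past the fold, at median log2 ratios of 0.33 and 0.40. The 1 was POSTN, at 28.8 against 15.6 CPM, with a UMI in 3.56% of thinned G2/M-high and 4.14% of other cardiomyocytes. Ratios were above 1 for 4 of the 6 fibroblast and 6 of the 7 epithelial markers, among them KRT7 (1.48), LUM (1.42), CDH1 (1.41) and DCN (1.39). COL1A2 (0.874), PDGFRA (0.962) and EPCAM (0.942) had ratios under 1. The part of other classes' transcripts in the result was not tested. Without the cardiomyocytes that carried COL1A1 at 1000 CPM (134 cells) or 5 epithelial UMIs (421 cells), a removal chosen after seeing the data, 13.0% were G2/M-high.

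CD34 protein did not separate the G2/M-high cardiomyocytes. The antibody tag had a median of 95.5 UMIs in them (86 to 117) and 91 in the others (87 to 96), with quartiles of 49 and 350 against 48 and 290. Per 10000 RNA UMIs the medians were 53.3 and 59.0, since the G2/M-high cells were deeper. In fibroblast-like cells the medians were 56 and 67, and in epithelial-like cells 39 and 38.

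Other cell cycle genes were taken from lists beside the 53. Of 22 further mitosis genes, 21 were tested over all cells, and 6 were higher and 0 lower in epithelial-like cells than in cardiomyocytes (median 0.42), while 1 was higher and 0 lower in fibroblast-like cells (0.11). Of 12 S phase genes, 3 were higher and 0 lower in epithelial-like cells and 1 higher and 1 lower in fibroblast-like cells. In epithelial-like cells, both upward counts are near the 26.5% of all genes, and 21.5% of all genes were lower. In fibroblast-like cells, 23.4% of all genes were higher and 19.5% lower than in cardiomyocytes. In cardiomyocytes all 12 S phase genes were higher in G2/M-high cells than in the others, with a median log2 ratio of 1.63. Of 13 transcriptional regulators tested there, 8 were higher and 0 lower. FOXM1, which activates G2 and mitosis genes, was 22.3-fold higher in G2/M-high cardiomyocytes (19.7 to 25.3), at 90.3 against 4.05 CPM, and 14.6-fold in both other classes. MYBL2, a transcription factor that joins the CHR-binding MuvB complex, was 12.8-fold higher in cardiomyocytes, 8.24-fold in fibroblast-like and 7.11-fold in epithelial-like cells.

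A further list held brakes of the cycle, G1 cyclins and the G1 kinases CDK4 and CDK6. Of 12 tested, 8 were higher and 2 lower in fibroblast-like cells than in cardiomyocytes, where 23.4% and 19.5% of all genes were. In epithelial-like cells 3 were higher and 4 lower, where 26.5% and 21.5% of all genes were. The 8 were not all brakes. They included the cyclins CCND1 (257 against 61.9 CPM in cardiomyocytes), CCND2 (627 against 172) and CCND3 (60.5 against 27.2). CDK4 (181 against 68.0) and CDK6 (130 against 68.1) were also among them. CDKN1C, the inhibitor p57, had 83.9 CPM in cardiomyocytes, 658 in fibroblast-like and 37.4 in epithelial-like cells. In fibroblast-like cells it had 325 CPM in G2/M-high and 725 CPM in other cells (ratio 0.449, 0.413 to 0.488), against ratios of 0.819 in cardiomyocytes and 0.760 in epithelial-like cells. CDKN1A, the inhibitor p21, had ratios of 1.66, 0.742 and 1.04 in fibroblast-like cells, cardiomyocytes and epithelial-like cells. Other brakes went the other way in cardiomyocytes. Of 11 genes of the list tested there, 3 were higher in G2/M-high cells and 1 lower, where 9.36% and 3.48% of all genes were. The 3 were CDKN2C (31.6, at 28.7 against 0.907 CPM), CDKN1B (1.64) and WEE1 (1.64), and the 1 was the cyclin CCND1 (0.654).

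Outside the 53, the genes with the highest ratio of G2/M-high to other cells were again cell cycle genes. CCNA2 (cyclin A), the motor KIF4A and PIMREG, a mitotic chromatin regulator, were among the leading 10 in all 3 classes, and 5 further genes in 2 of them. In cardiomyocytes PIMREG was 59.7-fold higher (47.0 to 76.9), CCNA2 49.8-fold (43.7 to 56.8) and KIF4A 42.4-fold (36.6 to 49.4). The linker histone HIST1H1B, 54.7-fold higher, and HIST1H3B, 47.5-fold, stood beside them, and these histone genes are made in S phase. PLA2G2A, a secreted phospholipase not known for a role in mitosis, was also among the 10 of cardiomyocytes, at 30.9 against 0.776 CPM.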

How the data were processed

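The deposited matrix holds whole-number UMI counts for 36601 genes and 1 antibody tag in 14829 barcodes, made with Cell Ranger 6.1.2 on build GRCh38 per the submitters' processing notes. No normalisation had been applied to these values. Barcodes were kept at 1000 or more genes, at most 25% mitochondrial UMIs and at most 35000 RNA UMIs, the last as a guard against doublets. No doublet caller was part of the main analysis, and Scrublet (scanpy 1.11.5) was run as an alternative. Levels are the summed UMIs of a class's cells, scaled to CPM. Ratios have exact conditional binomial intervals, levels exact Poisson and shares Clopper-Pearson (scipy 1.17.1, numpy 2.4.6, pandas 2.3.3, Python 3.11.15). A gene was called past the fold at 1.5 or more, or 0.667 or less. The scripts were tested on simulated counts. The 53 genes, the classes and all lists were chosen with earlier results of these data known. Every one of the 53 could be named. Other genes were named from lists, or as the 10 with the highest ratio of G2/M-high to other cells in a class at 20 CPM or more. The comparison in cells without other gate genes and the removal of cardiomyocytes with other classes' transcripts were added after the values were seen. PCR duplicates are collapsed by UMI, and intervals cover counting error only.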

Additional observations from a re-analysis of the deposited data

Results flagged for a closer look

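Barcodes over the limit of 35000 RNA UMIs were left out of the comparisons and were more often G2/M-high than the kept cells of their class. The share was 41.0% of 498 such cardiomyocytes (36.6 to 45.4%), against 14.0% of those kept. It was 39.4% of 71 fibroblast-like barcodes (28.0 to 51.8%), against 13.9%, and 51.4% of 208 epithelial-like barcodes (44.4 to 58.4%), against 20.8%. All were thinned to the same 5000 UMIs. Scrublet scored these barcodes together with the kept cells, 12119 in all, and marked 1401 as doublets. Of those marked, 855 were among the 11211 kept cells, and all others were among the 908 barcodes over the limit. Many barcodes over the limit were thus marked as doublets, and their G2/M-high share without the marked ones was not taken. Of the 766 thinned cells in no class, 18.4% were G2/M-high (15.7 to 21.3%).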

How the results depend on the processing

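With 1 culture, no value here has a replicate, and 83 cells stand behind the values of fibroblast-like G2/M-high cells. No paired analysis was possible because there is 1 culture. With cardiomyocytes from 4000 CPM of TNNT2 and other classes under 500 CPM, the median log2 ratio of the 53 genes was 1.04 for epithelial-like cells over cardiomyocytes, with 41 genes higher. It was 0.39 for fibroblast-like cells over cardiomyocytes, the reverse of the main direction, with 17 higher and 0 lower, and 0.68 for epithelial-like over fibroblast-like cells. The G2/M-high shares were then 10.1% of cardiomyocytes and 22.7% of epithelial-like cells, and the CD34 tag median of other cardiomyocytes 98.5. With no upper UMI limit, 3 genes were lower in fibroblast-like cells than in cardiomyocytes, 16.3% of cardiomyocytes and 22.3% of epithelial-like cells were G2/M-high, and the cytokinesis median of epithelial-like cells over cardiomyocytes was 0.14, the reverse of -0.07. Without Scrublet's doublets, 2 genes were higher in fibroblast-like cells and 12.6% of cardiomyocytes were G2/M-high. In the order cardiomyocytes, fibroblast-like and epithelial-like cells, the shares were 19.3%, 19.4% and 27.8% at 3 gate genes, and 10.2%, 9.88% and 15.2% at 8. Thinned to 3000 UMIs they were 11.6%, 10.9% and 17.9%, and to 10000 UMIs 18.7%, 19.6% and 27.4%, with a CD34 median of 97 in other cardiomyocytes. Without cardiomyocytes that carried other classes' transcripts, chosen after seeing the data, 13.0% were G2/M-high. The share was highest in epithelial-like cells in each of these settings. The cause of these shifts was not tested. Another gene floor or median-of-ratios scaling moved no count past 1.5 times.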
